A study of Mus musculus with 9 samples.

Results

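Caveolins and cavins are the coat proteins of caveolae, small flask-shaped pits of the plasma membrane. CAV1 and CAV2 are integral membrane scaffolds that bind cholesterol, and the cavins are soluble proteins that assemble on them, with CAVIN1 needed for the pit to form and CAVIN2 and CAVIN3 acting as adaptors. Caveolae buffer membrane tension and gather signalling receptors, and they are abundant in endothelial cells, adipocytes and muscle. The genes were followed as their 5 rows (*Cav1*, *Cav2*, *Cavin1*, *Cavin2* and *Cavin3*) of the 32286 in the deposited gene table, picked by symbol. *Cavin2* was part of the choice because it had been seen to fall in knockout tumours, so the knockout against WT values in tumour cells are given as a description, with no test.

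The 9 single-cell libraries came from primary mammary tumours, 3 from WT cells, 3 from *Kmt2c* KO cells and 3 from *Kmt2d* KO cells. KMT2C and KMT2D are histone methyltransferases that act mainly at enhancers. The tumour cells were 168FARN, a murine mammary carcinoma line, edited by transient transfection of Cas9 with 3 guides against an early exon and kept as sorted pools rather than clones. All groups carried an H2B–mCherry reporter, H2BMc in the gene table, and grew in the mammary fat pad of female BALB/c mice bought at 5 to 6 weeks of age. The hosts were not edited, so endothelial and other stromal cells had both genes in every group, and the 3 libraries of a group replicate the mouse but not the knockout line.

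Library 1, 2 and 3 of each group are numbered here in the order in which the table joins them. After filters 58645 of 89147 barcodes were kept, between 939 and 14525 per library, and the 3 WT libraries were the smallest. A cell was called a tumour cell when it held at least 1 H2BMc UMI (a unique molecular identifier, which marks 1 captured RNA molecule). That gave 16707 cells, with 9779795 to 47951145 UMIs per library. *Krt8* was found in 79.9% of them, but *Krt18* and the list *Krt7*, *Krt19*, *Epcam*, *Cd24a* and *Cdh1* were at or near 0, at most 0.459 and 0.400 CPM in any library (CPM is a gene's share of the UMIs summed over the cells of a library, scaled to 1000000), so the cells did not show the usual epithelial markers. *Kmt2c* was at 42.0 to 57.6 CPM in the *Kmt2c* KO libraries and 48.1 to 49.1 CPM in WT, and *Kmt2d* at 24.3 to 31.9 CPM in the *Kmt2d* KO libraries and 14.9 to 21.4 CPM in WT. Small edits need not remove a transcript, so these levels do not check the labels. Pairs of libraries shared 17 to 396 barcodes, at most 3.31% of the smaller library.

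The genes lie on 4 chromosomes of the mouse build GRCm38.p6, and only the caveolins are neighbours. *Cav2* is at chr6:17281185-17289130 and *Cav1* at chr6:17306335-17341328, a gap of 17204 bases. *Cavin2* is at chr1:51289126-51302960, *Cavin1* at chr11:100956736-100970617 and *Cavin3* at chr7:105480616-105482197. The start regions of *Cavin2*, *Cav1* and *Cav2* are shown because these 3 genes were lower in *Kmt2c* KO tumour cells. Each window covers 300 bases around a RefSeq transcript start on the plus strand (*Cavin2* chr1:51288876-51289175, *Cav1* chr6:17306085-17306384, *Cav2* chr6:17280935-17281234), and capitals mark matches to 4 searched motifs on either strand.
Cavin2: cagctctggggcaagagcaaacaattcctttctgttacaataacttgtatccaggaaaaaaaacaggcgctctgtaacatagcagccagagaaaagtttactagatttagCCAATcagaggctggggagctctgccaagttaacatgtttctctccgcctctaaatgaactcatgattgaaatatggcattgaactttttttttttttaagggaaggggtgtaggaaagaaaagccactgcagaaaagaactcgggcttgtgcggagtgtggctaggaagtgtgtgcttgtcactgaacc
Cav1: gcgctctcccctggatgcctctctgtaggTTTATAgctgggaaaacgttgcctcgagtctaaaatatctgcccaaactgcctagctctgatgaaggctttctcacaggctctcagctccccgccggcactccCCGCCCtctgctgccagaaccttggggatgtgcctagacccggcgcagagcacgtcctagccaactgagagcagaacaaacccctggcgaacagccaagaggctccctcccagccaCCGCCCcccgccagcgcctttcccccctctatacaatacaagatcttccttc
Cav2: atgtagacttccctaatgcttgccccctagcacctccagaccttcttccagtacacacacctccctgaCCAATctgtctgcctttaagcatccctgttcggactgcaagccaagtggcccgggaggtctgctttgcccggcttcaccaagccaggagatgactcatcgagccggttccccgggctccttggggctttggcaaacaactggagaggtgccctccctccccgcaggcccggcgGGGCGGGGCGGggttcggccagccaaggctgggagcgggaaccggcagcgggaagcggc

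The TEAD motif was searched as GGAATG on both strands. The GC box was searched as GGGCGG. The TATA box was searched as TATAAA. The CCAAT box was searched by the letters of its name. *Cavin2* held 1 CCAAT box and no other match, and the CCAAT letters were in 37.4% of the 32851 RefSeq windows of this length. *Cav1* held 2 GC boxes and 1 TATA match read on the minus strand, and *Cav2* held 2 GC boxes that share a base and 1 CCAAT box. GC boxes were in 35.7% of windows and TATA letters in 13.6%. The *Cavin2* window differed in base composition, with 4 CpG dinucleotides and 43.3% G or C, against 13 and 59.3% for *Cav1*, 16 and 64.3% for *Cav2*, and medians of 7.0 and 52.7% over all windows. *Cavin1*, on the minus strand, held 1 TEAD match, 1 GC box and 1 CCAAT box in each of its 2 overlapping windows, and TEAD letters were in 14.7% of all windows. A further *Cav1* window held no match. *Cavin3* is named only.

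In tumour cells *Cavin2* was lower in all 6 knockout libraries than in any WT library, and lowest in *Kmt2c* KO. CAVIN2 binds phosphatidylserine and helps to bend the caveolar membrane. Its level was 35.8, 21.7 and 27.8 CPM in WT libraries 1 to 3, then 5.23, 5.45 and 3.93 CPM in *Kmt2c* KO, and 14.5, 14.2 and 13.6 CPM in *Kmt2d* KO. The 3 groups did not overlap, and the spread was widest within WT. The log2 fold change was -2.53 ± 0.19 (SE) for *Kmt2c* KO against WT and -1.04 ± 0.18 for *Kmt2d* KO against WT. Over the 19 alternatives these ran from -3.14 to -2.35 and from -1.59 to -0.85, with -3.14 and -1.59 from cells thinned to 2000 UMIs, and -2.35 and -0.85 without WT library 1. *Kmt2d* KO library 2 was not apart from its group for this gene.

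Other measures also differed by group. *Krt8* in tumour cells was at 549.6 to 569.2 CPM in WT, 235.4 to 339.3 CPM in *Kmt2c* KO and 303.8 to 465.7 CPM in *Kmt2d* KO. The mitochondrial limit alone removed 11.6 to 33.8% of all barcodes of a library in WT, 7.78 to 9.96% in *Kmt2c* KO and 13.3 to 17.6% in *Kmt2d* KO. With no such limit the log2 fold changes of *Cavin2* were -2.52 and -1.03, and in cells that held both H2BMc and *Krt8* they were -2.46 and -0.97. The part of the *Krt8* level in them was not tested.

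*Cav1*, the main structural caveolin outside striated muscle, followed the same order with a smaller difference. It stood at 236.9, 208.5 and 221.6 CPM in WT, at 137.2, 159.1 and 154.1 CPM in *Kmt2c* KO, and at 190.7, 186.3 and 210.5 CPM in *Kmt2d* KO. The *Kmt2c* KO libraries lay below all others, while *Kmt2d* KO library 3 overlapped WT. The log2 fold changes against WT were -0.57 ± 0.09 for *Kmt2c* KO and -0.21 ± 0.09 for *Kmt2d* KO.

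*Cav2*, which needs CAV1 to reach the membrane, was 88.5, 88.9 and 92.6 CPM in WT, 76.9, 68.5 and 73.2 CPM in *Kmt2c* KO and 81.3, 88.7 and 84.0 CPM in *Kmt2d* KO. Again *Kmt2c* KO lay below the other 6 libraries and *Kmt2d* KO touched the WT range. The log2 fold changes against WT were -0.31 ± 0.08 and -0.12 ± 0.08 in the same order.

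The other cavins did not show this order. *Cavin1*, the core coat gene, was 104.4, 94.2 and 96.6 CPM in WT, 108.8, 113.4 and 140.0 CPM in *Kmt2c* KO, and 104.6, 132.7 and 104.4 CPM in *Kmt2d* KO. All 3 *Kmt2c* KO libraries were above WT, with a log2 fold change of 0.29 ± 0.11, and *Kmt2d* KO gave 0.18 ± 0.11. *Cavin3*, which codes for a partner of protein kinase C delta, stood at 1294, 1287 and 1267 CPM in WT, at 1284, 1118 and 999 CPM in *Kmt2c* KO and at 1151, 1019 and 1146 CPM in *Kmt2d* KO. Its log2 fold changes against WT were -0.18 ± 0.11 and -0.25 ± 0.11, and *Kmt2c* KO overlapped WT.

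**Figure D1:**
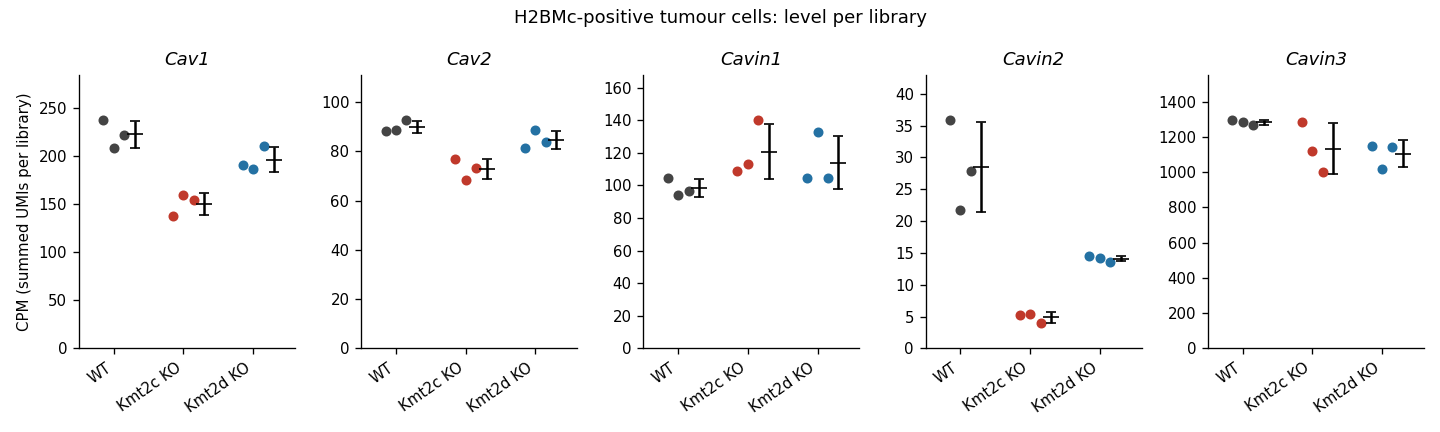
Level of each gene in H2BMc-positive tumour cells, in CPM of the UMIs summed per library, with 1 point per library and the mean ± SD of the 3 libraries beside each group. *Cavin2* falls into 3 separate levels, 21.7 to 35.8 CPM in WT, 13.6 to 14.5 CPM in *Kmt2d* KO and 3.93 to 5.45 CPM in *Kmt2c* KO.

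In all, 3 of 5 members were lower with no overlap in *Kmt2c* KO and 1 was higher with no overlap. Of all 14089 genes tested, 21.3% had every *Kmt2c* KO library below every WT library and 20.8% had every one above. For *Kmt2d* KO, *Cavin2* and *Cavin3* lay below WT with no overlap, as did 10.2% of all genes, and 13.3% lay above it. *Cavin1* lay above WT by a margin within counting error. *Kmt2d* KO library 3 was at 104.44 CPM and WT library 1 at 104.37 CPM. Their exact Poisson 95% intervals were 101.6 to 107.4 and 98.1 to 110.9 CPM, so this is not counted as a separation. By an adjusted p of 0.05 (edgeR quasi-likelihood test, Benjamini-Hochberg adjusted), 18.7% of all genes passed for *Kmt2c* KO against WT, 9.17% as lower and 9.57% as higher, and 2.27% for *Kmt2d* KO against WT, 1.23% as lower and 1.04% as higher. Since *Cavin2* was picked on these contrasts and the list was picked with it, nothing is read from these counts.

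The comparison of *Kmt2d* KO with *Kmt2c* KO uses the knockout libraries on which *Cavin2* was picked, so its values are also given without a test. *Cavin2* was at a log2 fold change of 1.50 ± 0.18 in *Kmt2d* KO relative to *Kmt2c* KO, and between 1.34 and 1.63 in the 19 alternatives. *Cav1* gave 0.35 ± 0.09, *Cav2* 0.19 ± 0.07, *Cavin1* -0.11 ± 0.11 and *Cavin3* -0.07 ± 0.11. The 95% intervals of the last 3 were 0.02 to 0.35, -0.35 to 0.13 and -0.31 to 0.18.

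The share of cells with a *Cavin2* UMI gave the same order. With each cell thinned to 2000 UMIs, 5.42 to 7.67% of WT tumour cells held at least 1, against 0.538 to 1.02% in *Kmt2c* KO and 1.42 to 2.46% in *Kmt2d* KO. Without thinning the ranges were 24.9 to 42.9%, 3.57 to 4.42% and 9.96 to 14.98%, while the median depth was 13729 to 24081 UMIs in WT and 8661 to 14789 UMIs in the knockouts. Immune-gate cells, which should lack the gene, gave 0 of 708 thinned cells, which allows a share of up to 0.424%, and 0.138% without thinning. Their pooled *Cavin2* level was 0.520 CPM, from 2 UMIs. The *Kmt2c* KO level in tumour cells was low but above that of the immune cells.

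Endothelial cells were searched for because caveolae are dense there. A cell passed the gate with at least 4 of 10 markers (*Pecam1*, *Cdh5*, *Kdr*, *Flt1*, *Tie1*, *Egfl7*, *Emcn*, *Cldn5*, *Plvap* and *Esam*), fewer than 4 of any other list, and no H2BMc, *Krt8* or *Krt18* UMI. That left 404 cells, between 27 and 66 per library. *Pecam1*, itself a gate marker, was at 1082 to 1376 CPM there and at 0.300 to 2.72 CPM in tumour cells. The small number of cells per library limits precision. The Poisson intervals below cover counting error only, and those of the log2 fold changes include the spread between libraries.

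*Cavin2* was lower in these cells when the tumour was *Kmt2c* KO. The gene was picked on a fall seen in these same tumours. The gate holds no cell with an H2BMc UMI, but the test is not independent of that choice. *Cavin2* stood at 608.2, 650.1 and 556.8 CPM in WT tumours and at 240.4, 186.1 and 133.9 CPM in *Kmt2c* KO tumours, from 205, 256 and 266 UMIs and from 42, 42 and 22 UMIs. The ranges were far apart, since the exact Poisson 95% interval of the highest *Kmt2c* KO library ended at 324.9 CPM and that of the lowest WT library began at 491.9 CPM. The log2 fold change was -1.64 ± 0.26 (edgeR, adjusted p = 0.00253) in a comparison that called 318 of 5362 genes, or 5.93%. It was called in all 14 alternatives, with adjusted p between 9.75e-11 and 0.0164. The highest tumour-cell level of *Cavin2*, 35.8 CPM, was far below every endothelial level.

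In *Kmt2d* KO tumours the endothelial cells were not uniform. *Cavin2* was 497.9 and 511.1 CPM in libraries 1 and 3 but 255.5 CPM in library 2, close to the highest *Kmt2c* KO library. Against WT the log2 fold change was -0.49 ± 0.23 (edgeR, adjusted p = 0.495, where 0.0373% of genes passed), with a 95% interval of -0.99 to 0.01. Against *Kmt2c* KO it was 1.15 ± 0.26 (adjusted p = 0.145, where 0.0559% of genes passed), and it passed with DESeq2 (0.0227), with no low-count filter (2.23e-04) and without *Kmt2d* KO library 2 (1.35e-04). The call between the knockouts thus depended on the tool, the filter and 1 library.

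*Cavin1* was lower in the *Kmt2c* KO libraries than in WT in endothelial cells, without passing the threshold. The exact Poisson 95% intervals of the nearest libraries overlapped, at 232.2 to 403.2 CPM in *Kmt2c* KO library 1 and 285.1 to 403.0 CPM in WT library 2. It was 504.3, 340.3 and 391.4 CPM in WT, 309.1, 243.7 and 194.7 CPM in *Kmt2c* KO, and 424.7, 349.3 and 391.8 CPM in *Kmt2d* KO. The log2 fold change of *Kmt2c* KO against WT was -0.67 ± 0.22 (edgeR, adjusted p = 0.0858), and it passed with no low-count filter (0.0303) and without *Kmt2d* KO library 2 (0.0280). In tumour cells the *Kmt2c* KO libraries lay above WT, and the difference between the 2 cell classes was not tested. The share of all genes with libraries apart in this way was not computed for endothelial cells.

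*Cav1* was at 1127, 1138 and 1197 CPM in WT endothelial cells and at 583.8, 1108 and 1138 CPM in *Kmt2c* KO, so that only library 1 was low. Its log2 fold change was -0.24 ± 0.22, with an interval of -0.70 to 0.22, and *Kmt2d* KO gave -0.08 ± 0.22. *Cav2* gave 0.13 ± 0.21 and -0.13 ± 0.21 against WT, and *Cavin3* -0.05 ± 0.21 and 0.16 ± 0.21, and of the 4 members other than *Cavin2* none passed in this gate outside the 2 alternatives named for *Cavin1*.

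**Figure D2:**
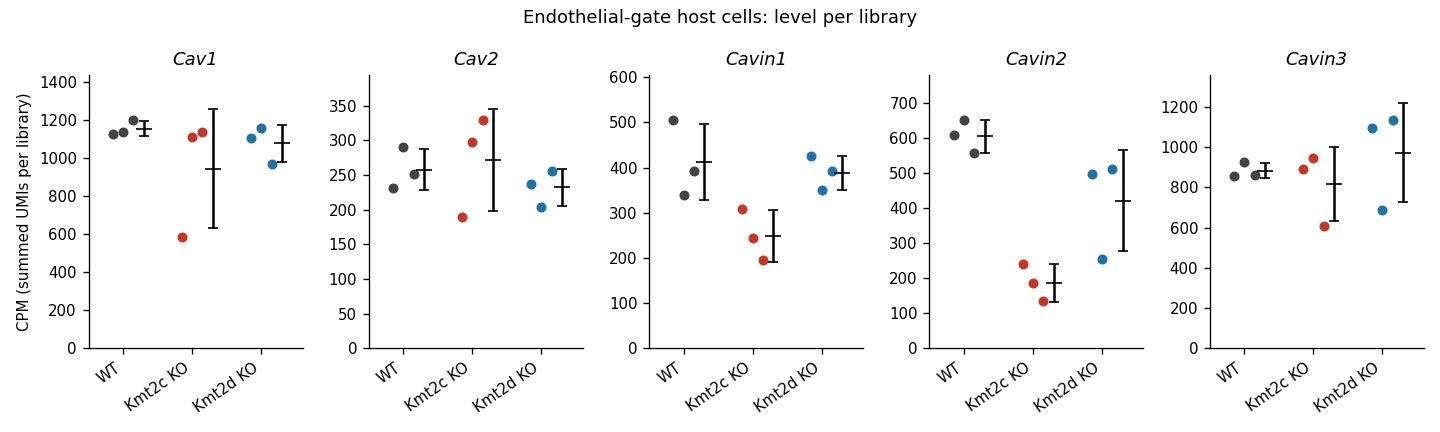
Level of each gene in endothelial-gate host cells, in CPM of the UMIs summed per library, with 1 point per library and the mean ± SD of 3 libraries beside each group. *Cavin2* is at 556.8 to 650.1 CPM in WT tumours and 133.9 to 240.4 CPM in *Kmt2c* KO tumours, and *Kmt2d* KO library 2 lies apart from its group at 255.5 CPM.

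Other markers were measured in the same endothelial cells. The gate admitted cells by the endothelial list, so like sums of that list are partly built in. The endothelial list summed to 10435 to 11839 CPM in WT, 10359 to 11823 CPM in *Kmt2c* KO and 10045 to 10922 CPM in *Kmt2d* KO, with 10 of 10 markers found in every library, so it did not separate the groups. The mural list did, at 479.4 to 624.7 CPM in WT, 749.7 to 868.4 CPM in *Kmt2c* KO and 684.2 to 698.6 CPM in *Kmt2d* KO, with 3 to 5 of 10 markers found per library. *Rgs5*, 1 of these 10 markers, was at 0 to 5.72 CPM, so nearly all of the sum came from other markers, which are not given singly. Whether the sum came from RNA of mural cells was not tested. The fibroblast list stood at 0 to 7.62 CPM in WT and 22.9 to 132.9 CPM in *Kmt2c* KO, with 0 to 5 of 10 markers found. The immune list stood at 17.8 to 50.4 CPM and 44.3 to 85.2 CPM, with 1 to 6 of 12 markers found. Median depth was 5020 to 8219 UMIs per endothelial cell in WT and 3248 to 6542 UMIs in *Kmt2c* KO, and after thinning to 2000 UMIs 61.3 to 70.3% of WT cells and 18.2 to 36.1% of *Kmt2c* KO cells held *Cavin2*. Unthinned, the shares were 76.5 to 84.1% and 40.7 to 51.4%. The part of these differences in the fall of *Cavin2* was not tested.

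**Figure D3:**
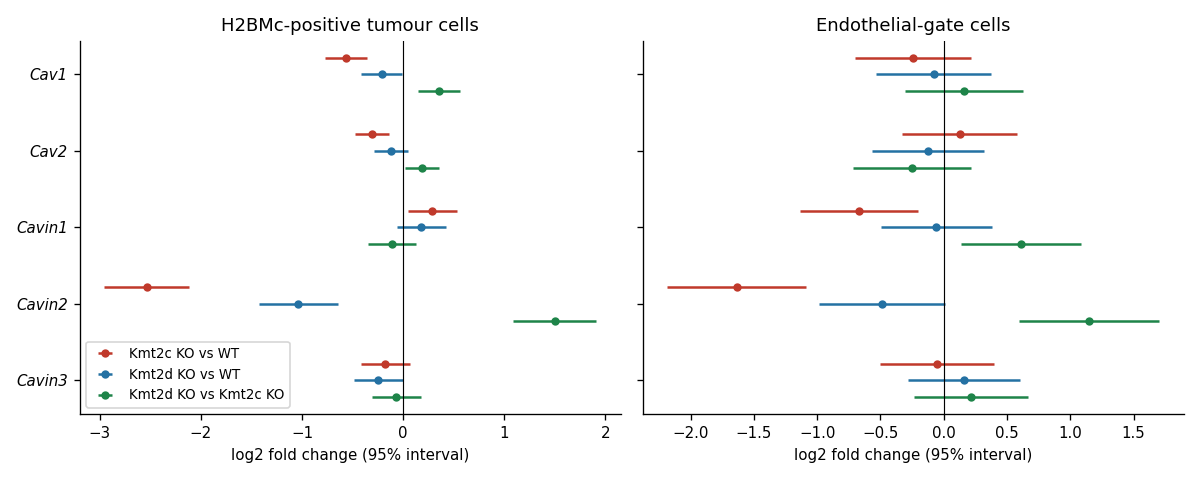
Log2 fold changes with 95% intervals (points and bars) for the 3 comparisons, in H2BMc-positive tumour cells at left and endothelial-gate cells at right, fitted with edgeR over 3 libraries per group. *Cavin2* lies furthest from 0 in both panels for *Kmt2c* KO against WT, at -2.53 and -1.64. The gene was picked on a fall in these tumours, so nothing is read from this rank. The tumour-cell values and their intervals are a description with no test.

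Levels in endothelial and tumour cells of the same library were compared next. Within libraries, *Cavin2* was higher in endothelial than in tumour cells by 4.70 ± 0.46 (SD, n = 9) on the log2(CPM + 1) scale, *Cav1* by 2.47 ± 0.27, *Cavin1* by 1.61 ± 0.56 and *Cav2* by 1.59 ± 0.34, each in 9 of 9 libraries. *Cavin3* went the other way, at -0.42 ± 0.25, and was lower in endothelial cells in 9 of 9 libraries. Each difference had an exact paired permutation p of 0.00391, the smallest that 9 libraries can give, and an adjusted p of 0.00586 over 15 tests. Of 10425 genes with a mean of at least 5 CPM over the pair of classes, gate markers left out, 64.3% passed the same test with p adjusted over all of them, 25.4% as higher and 38.8% as lower in endothelial cells. A difference between such unlike classes was thus common, and passing says little about these genes. With p adjusted over all genes of a comparison, the same members passed as over the 15 tests between classes and the 20 between tumour cell states.

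Immune-gate cells were lower than tumour cells for all 5 genes in 9 of 9 libraries (exact paired permutation test, adjusted p = 0.00586 each), where 69.2% of 10755 genes passed, 38.9% as lower. The mean differences lay between -5.16 and -3.002 on the log2(CPM + 1) scale. Their sizes and order depend on the pseudocount, as *Cavin2* gave -6.16 with a pseudocount of 0.1, -3.53 with 1 and -1.81 with 5. Their *Cavin3* level ranged from 0 to 142.1 CPM, higher in *Kmt2c* KO libraries (92.4 to 142.1 CPM) than in WT libraries (0 to 20.9 CPM), and tumour cells held 999 to 1294 CPM of this gene. RNA from tumour cells in the immune barcodes was not tested.

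The fibroblast gate did not give a clean cell type. Its 10 markers include matrix genes that tumour cells also made, 7.63% of H2BMc-positive cells met its positive part, and only 35.8% of its 595 cells held *Col1a1*. Of 3297 cells with at least 4 of its markers, 2699 held an H2BMc, *Krt8* or *Krt18* UMI and were left out. In the 8 libraries with at least 20 such cells, *Cav1*, *Cav2* and *Cavin3* differed from tumour cells by -0.81 ± 0.78, -1.44 ± 2.08 and -0.74 ± 0.29 on the log2(CPM + 1) scale (SD, n = 8, exact paired permutation test, adjusted p = 0.0180, 0.00977 and 0.00977). *Cav2* had 0 UMIs in WT library 1, and without that library its difference was -0.71 ± 0.42. *Cavin1* gave 0.40 ± 0.46 (SD, n = 8, exact paired permutation adjusted p = 0.0502) and *Cavin2* 0.30 ± 1.14 (0.453). *Cavin1* passed with at least 10 cells per library (exact paired permutation adjusted p = 0.0391), without cells holding 2 markers of another list (0.0335) and without WT library 2 (0.0180). Of 10382 genes 33.4% passed the same test, 16.4% as lower. WT library 3 had 12 such cells and was left out, so WT had 2 libraries here. No gene of 8732 passed for any genotype contrast in this gate with edgeR, while 1080, 592 and 456 genes had an unadjusted p under 0.05 for *Kmt2c* KO against WT, *Kmt2d* KO against WT and *Kmt2d* KO against *Kmt2c* KO, and DESeq2 called 60, 3 and 0.

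In the 125 cells of that gate that also held *Col1a1* and *Col1a2*, a choice made after seeing the mixture, pooled levels were 59.0 CPM for *Cav1*, 14.1 CPM for *Cav2*, 188.6 CPM for *Cavin1*, 24.4 CPM for *Cavin2* and 501.6 CPM for *Cavin3*. The exact Poisson intervals were 43.2 to 78.7, 7.04 to 25.2, 159.3 to 221.6, 14.7 to 38.1 and 453.1 to 553.8 CPM. The mural gate, meant for pericytes and smooth muscle, held 111 cells, of which 73.0% held *Col1a1*, and their identity was not tested further. There were at least 20 in 1 library, so that no test was made at that minimum. With at least 10 cells, 6 libraries could be compared with tumour cells. *Cavin3* was lower in 6 of 6 by 1.59 ± 0.32 (SD, n = 6, exact paired permutation adjusted p = 0.0417), while the other 4 members did not pass. The share of all genes that pass was not computed for this gate, so nothing is read from this result. Pooled *Cavin2* was 31.3 CPM there (15.6 to 56.0 CPM), from 11 UMIs of which 7 came from WT library 1. Pooled *Cav1* was 196.5 CPM and *Cavin1* 142.4 CPM.

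**Figure D4:**
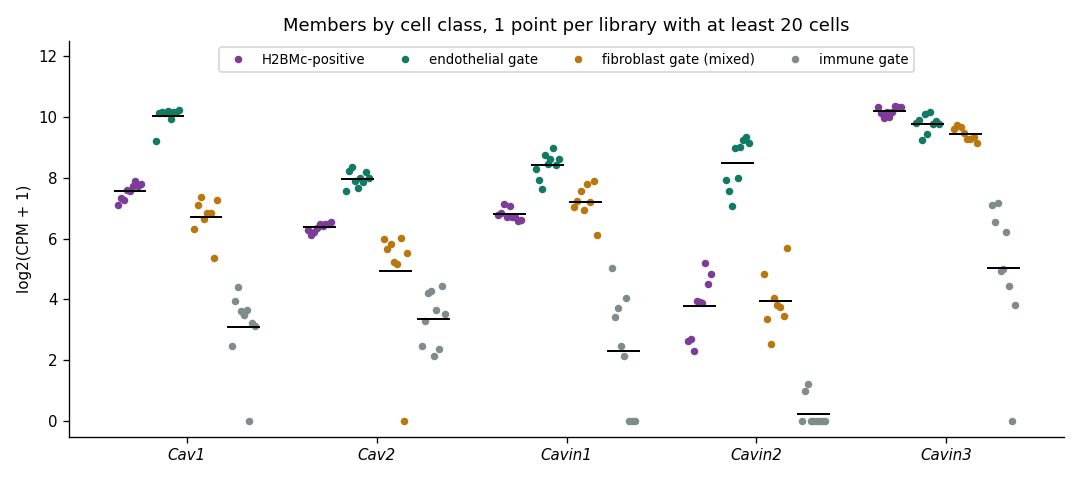
Level of each gene as log2(CPM + 1), in tumour cells and in the endothelial, fibroblast (mixed) and immune gates, with 1 point per library holding at least 20 cells of the class and a line at the mean. Endothelial cells lie above tumour cells for *Cav1*, *Cav2*, *Cavin1* and *Cavin2* and below them for *Cavin3*, and immune cells have the lowest mean of these 4 classes for every gene.

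Tumour cells were also compared by their matrix program. The cells of a library were ranked by the share of their UMIs from 10 matrix genes (*Col1a1*, *Col1a2*, *Col3a1*, *Col5a1*, *Col5a2*, *Col6a1*, *Fn1*, *Sparc*, *Postn* and *Aspn*), and the top 25% were set against the rest. *Cavin3* was lower in the matrix-high cells by 0.91 ± 0.18 (SD, n = 9) on the log2(CPM + 1) scale, *Cav2* by 0.72 ± 0.21 and *Cav1* by 0.46 ± 0.20, while *Cavin1* was higher by 0.40 ± 0.16. Each held in 9 of 9 libraries (exact paired permutation test, adjusted p = 0.0112 over 20 tests). Of 10022 genes outside the list 75.9% passed the same test, 30.0% as lower and 45.9% as higher, so 4 of 5 is near the share of all genes. *Cavin2* gave -0.40 ± 0.63 and did not pass (adjusted p = 0.120). Matrix-high cells were shallower, with median depths of 6807 to 15323 UMIs against 9695 to 30835, and after thinning to 2000 UMIs the 4 differences were -0.77, -0.65, -0.35 and 0.41, each with an adjusted p of 0.0112.

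Cells high in 10 mitotic genes such as *Mki67* and *Top2a* held more *Cav2* (0.31 ± 0.13) and *Cavin3* (0.36 ± 0.14) and less *Cavin1* (-0.16 ± 0.10), in 9 of 9 libraries each (adjusted p = 0.0112, n = 9, exact paired permutation test), where 75.4% of 9887 genes passed, 30.1% as higher and 45.3% as lower. Without cells that held 2 or more markers of a stromal or immune list, *Cav2* still passed (0.0391), and *Cavin3* and *Cavin1* did not (0.0601 each). Hypoxia-high cells held more *Cav1* (0.25 ± 0.17, 8 of 9 libraries, adjusted p = 0.0174) and *Cav2* (0.16 ± 0.16, 7 of 9, adjusted p = 0.0426), by the same exact test, where 47.9% of 9882 genes passed, 7.41% as higher. The first was 0.0521 after thinning and the second 0.0601 without the marker-holding cells. Interferon-high cells held less *Cav2* (-0.28 ± 0.22, 8 of 9 libraries, exact adjusted p = 0.0174) and *Cavin3* (-0.06 ± 0.06, exact adjusted p = 0.0234), where 34.9% of 9959 genes passed, 18.8% as lower, and neither passed after thinning (0.240 and 0.699). The top 25% is a range and not a cell type, and 0.831 to 11.6% of cells lay within 10% of the dividing value.

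**Figure D5:**
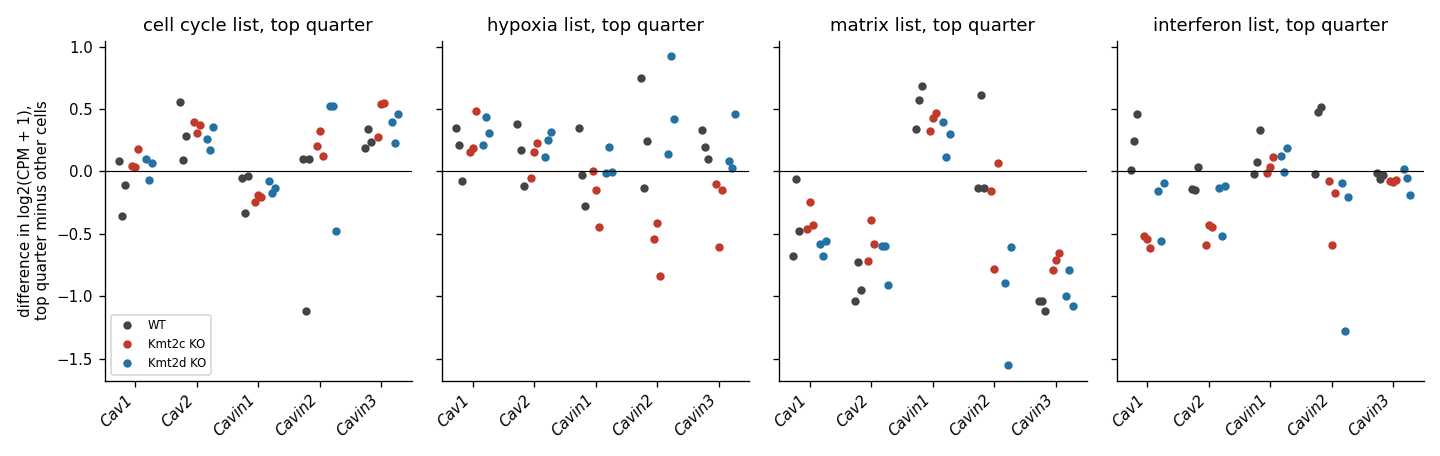
Difference in log2(CPM + 1) between the top 25% of tumour cells of each library by a gene list and the other cells, for 4 lists, with 1 point per library coloured by group. In the matrix panel *Cavin1* lies above 0 and *Cav1*, *Cav2* and *Cavin3* below 0 in all 9 libraries.

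A list of 15 caveola accessory genes held EHD and PACSIN membrane proteins, dynamins, flotillins, *Ror1*, *Flna* and the muscle forms *Cav3* and *Cavin4*. Of these, 11 could be tested in tumour cells. For *Kmt2c* KO against WT 2 of 11 were higher and 0 lower, a share near the 18.7% of all genes, with a list median of 0.18 against -0.0039 over all genes. They were *Flna*, which links caveolae to actin, at 0.30 ± 0.08 (edgeR, adjusted p = 0.0225), and *Dnm2*, the scission enzyme, at 0.24 ± 0.07 (0.0400). *Ehd2*, the ATPase at the caveolar neck, gave -0.23 ± 0.09 (0.0980). None of the 11 passed for *Kmt2d* KO against WT or against *Kmt2c* KO, where 2.27% and 0.0781% of all genes passed.

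Of 22 target genes of YAP and TAZ, coactivators that respond to membrane and cytoskeletal tension, 19 were tested. For *Kmt2c* KO against WT 3 were higher and 1 lower, a share near the 18.7% of all genes, with a list median of 0.17. The higher genes were *Nt5e*, the ectonucleotidase CD73, from 2.06 ± 0.38 to 8.81 ± 1.55 CPM (SD, n = 3), *Nuak2*, a kinase, from 0.839 ± 0.107 to 2.02 ± 0.10 CPM, and *Ptpn14*, a phosphatase that restrains YAP, from 45.3 ± 1.0 to 56.7 ± 4.1 CPM. The lower gene was *Ccdc80*, a matrix protein, from 4.22 ± 1.74 to 1.78 ± 0.78 CPM. Their edgeR adjusted p were 0.0016, 0.0299, 0.0267 and 0.0344. Only *Nt5e* passed for *Kmt2d* KO against WT, at 5.60 ± 2.03 CPM, against 2.27% of all genes, and 0 of 19 passed between the knockouts, against 0.0781%. *Ccn1* was at 287.8 ± 125.6 CPM in WT and 430.5 ± 128.8 CPM in *Kmt2c* KO and did not pass (edgeR, adjusted p = 0.291).

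Over the 9 libraries, the log2(CPM + 1) level of *Cavin2* in tumour cells ran most like those of *Hs2st1* (Pearson r = 0.986), *Gtf2a2* (0.984), *Pigf*, *Znhit6* and *9130401M01Rik* among 6662 genes with a mean of at least 20 CPM, and ran opposite to *Clcn3* (-0.976) and *Sat1* (-0.972). For *Cav1* these were *Arhgap42* and *Smarcad1*, for *Cav2* *Pclaf* and *Suclg2*, for *Cavin1* *Relch* and *Kif1b*, and for *Cavin3* *Mrpl58* and *Cox6a1*. Within the family, *Cavin2* and *Cav1* gave 0.945, *Cav1* and *Cav2* 0.805 and *Cavin1* and *Cavin3* -0.881. The libraries fall into 3 genotype groups and share depth with them, so these are descriptions of 9 points with no test.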

How the data were processed

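The deposited table held UMI counts per gene and barcode, which the authors made from Chromium 5′ libraries with Cell Ranger 7.0.1 on mm10, joined over 9 libraries. The library was read from the barcode suffix and its group from the genotype letter that the deposited library list gives beside each name (C for *Kmt2c* KO, D for *Kmt2d* KO, X for WT), as the comparison names in the study's supplementary tables give it. Library names matched no sample title. No per-sample column was left unused.

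Cells with more than 500 and fewer than 7500 genes and under 15% mitochondrial UMIs were kept. No doublet caller was run, and the gates drop cells with 4 markers of a further list. Counts were summed per library and class (at least 20 cells) and tested with edgeR 4.0.16 over all 9 libraries, or 8 for the fibroblast gate, where WT had 2 (filterByExpr, TMM, quasi-likelihood test, adjusted p under 0.05), checked on simulated data. DESeq2 1.42.0 was an alternative. Within libraries an exact two-sided sign-flip permutation test of log2(CPM + 1), pseudocount 1, was used, and run over all genes with a mean of at least 5 CPM for the share that passes, a step added after the data were seen. The edgeR and DESeq2 p-values rest on the spread between the libraries of a group. Those of the sign-flip test rest on the differences within libraries, taken over all groups together. Fold changes have 95% intervals.

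The members and lists were chosen with earlier results of these data known. Named genes were all members, the 4 largest changes among called genes of each list per tumour-cell comparison, and the genes most like each member over libraries (1 gene is not reported here); *Ehd2* and *Ccn1* were named after their values were seen. Promoter windows came from RefSeq (GRCm38.p6), which matched 4 of 5 members.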

Additional observations from a re-analysis of the deposited data

Results flagged for a closer look

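*Cavin1* in *Kmt2c* KO tumours lay on opposite sides of WT in the 2 cell classes. The log2 fold change against WT was 0.29 in tumour cells and -0.67 in endothelial-gate cells, and in each class the 3 *Kmt2c* KO libraries did not overlap the 3 WT libraries. The endothelial difference did not pass (edgeR, adjusted p = 0.0858), and the tumour-cell value is a description with no test. In endothelial cells the Poisson intervals of the nearest libraries overlapped. The difference between the classes was not tested. In tumour cells 20.8% of all genes had every *Kmt2c* KO library above every WT library. Such a share was not computed for the endothelial gate.

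Among tumour cell states, 3 members had every library of one group on the opposite side of 0 from every library of another. The share of all genes with such a split was not computed, so nothing is read from this count. In hypoxia-high cells *Cavin2* differed from the other cells by 0.29 for WT, -0.60 for *Kmt2c* KO and 0.50 for *Kmt2d* KO on the log2(CPM + 1) scale. *Cavin3* in hypoxia-high cells gave 0.21, -0.28 and 0.19 in the same order. *Cav1* in interferon-high cells gave 0.24, -0.56 and -0.27. An exact permutation test of the difference between groups gave an unadjusted p of 0.05, 0.05 and 0.025, and an adjusted p of 0.2 for each over 20 tests, so none passed.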

How the results depend on the processing

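No paired analysis was possible because the library names matched no sample title, so libraries could not be paired across groups. The library numbers follow the order of the table and pair nothing. The paired permutation tests compared cell classes or states within each library, which needs no such match. Counts of called genes moved by over 1.5 times as follows, with the cause not tested. In tumour cells *Kmt2c* KO against WT (2640 genes) gave 931 thinned and 1256 to 4140 with a library left out. *Kmt2d* KO against WT (320) gave 516 with no low-count filter, 703 with DESeq2, 177 with only the 2 groups, 209 with at least 2 H2BMc UMIs, 44 thinned and 98 to 823 with a library left out. *Kmt2d* KO against *Kmt2c* KO (11) gave, in that order, 521, 577, 0, 121 and 67, then 17 without marker-holding cells, 4 with a mitochondrial limit of 10% and 0 to 2797 with a library left out. The highest count of each of these 3 comparisons came without *Kmt2d* KO library 2. In the endothelial gate the 3 comparisons (318, 2 and 3) gave 572, 130 and 136 with no filter, 12 and 15 with DESeq2 for the last 2, 1 with at least 3 markers for the second, and 102 to 635, 0 to 21 and 0 to 284 with a library left out. In the fibroblast gate (0 in each) they gave 636, 216 and 307 with no filter, 60 and 3 with DESeq2 for the first 2, 140 and 1 with at least 3 markers for the first 2, 3 with at least 10 cells for the first, and 0 to 364 and 0 to 28 with a library left out for the first and last.

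The mural gate gave no test, as 1 library held 20 cells. With at least 10 cells *Cavin3* passed against tumour cells, where the share of all genes was not computed. At that minimum 36 of 994 genes passed for *Kmt2c* KO against WT. The fibroblast gate with at least 5 markers gave no test. Members that differed by state went from 3 to 1 for the cell cycle, from 2 to 1 for hypoxia and from 2 to 1 for interferon without marker-holding cells, to 1 for hypoxia and 0 for interferon thinned, and to 0 for interferon with the top 50% of cells; with a library left out hypoxia gave 1 to 2, matrix 4 to 5 and the fibroblast gate 3 to 4.

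Outside the mural gate, signs turned in the differences listed below, which reached 0.33 with a library left out, so their direction is not settled. In the mural gate *Cavin1* stood above tumour cells in WT library 2 (160.8 against 94.2 CPM), which alone held at least 20 cells. With at least 10 cells per library its mean difference was slightly below 0. With a library left out, endothelial log2 fold changes ran from -0.078 to 0.33 (*Cav1*, *Kmt2d* KO against *Kmt2c* KO), -0.18 to 0.0012 (*Cav1*, *Kmt2d* KO against WT), -0.013 to 0.31 (*Cav2*, *Kmt2c* KO against WT), -0.20 to 0.086 (*Cavin1*, *Kmt2d* KO against WT) and -0.22 to 0.12 (*Cavin3*, *Kmt2c* KO against WT), and *Cavin3* between the knockouts in tumour cells from -0.18 to 0.024. Cell cycle differences ran from -0.025 to 0.042 for *Cav1* (0.14 with the top 50%, 0.015 thinned) and -0.028 to 0.18 for *Cavin2* (-0.077 without marker-holding cells). Hypoxia differences ran from -0.088 to 0.011 for *Cavin1* (0.029 without marker-holding cells), -0.046 to 0.17 for *Cavin2* (-0.13 thinned) and -0.015 to 0.12 for *Cavin3* (-0.053 without marker-holding cells). *Cavin3* in interferon-high cells was 0.012 thinned. The direction of *Cavin2* against WT held in every alternative in tumour and endothelial cells. The gene was picked on a fall in these tumours and the alternatives reuse the same libraries, so this is not independent support. In endothelial cells *Kmt2d* KO against WT passed in 0 of 15 settings (edgeR or DESeq2, adjusted p from 0.395 to 0.750).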
